A study of Danio rerio with 17 samples.

Results

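The core circadian loop was followed through 10 genes in whole zebrafish embryos kept in excess glucose or injected with lipid. The genes were chosen by name: the activators clocka, arntl1a, arntl1b and arntl2, the period genes per1a, per1b and per3, the REV-ERB genes nr1d1 and nr1d2a, and the transcription factor gene tefb. All 10 were present among the 15316 named genes of the count files, and all 10 were among the 13539 genes that passed the filter on low counts. Of them, per1a and tefb were lower in glucose pools than in control pools. In FFA against glucose, with the same glucose pools, both were higher and per3 was lower. In the main fit no member was called between FFA and control pools, and none of clocka, arntl1a, arntl1b and arntl2 was called in any comparison. Of all genes the main fit called 10.9% in glucose against control, 1.82% in FFA against control and 17.0% in FFA against glucose. These counts of members show nothing particular to the list. The activator paralog clockb, which is not a member, was called lower in glucose than in control. With the share of counts outside genes added to the model, per3 was also higher in glucose and lower in FFA than in control. Further members were called in that fit, among them the activators arntl1b and arntl2. Of all genes it called 18.6% in glucose against control, 4.79% in FFA against control and 29.4% in FFA against glucose. No other fit called per3 against control.

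The circadian clock is a feedback loop of transcription. CLOCK and BMAL proteins (the BMAL genes are named arntl here) pair up and switch on genes that carry E-boxes, among them the period, cryptochrome and REV-ERB genes. Period and cryptochrome proteins then block the pair, and REV-ERB proteins repress the BMAL genes, while TEF and its relatives act on D-box elements. In zebrafish nearly every tissue has its own clock that responds to light directly, and the genes per2, cry1aa and cry5 are known as light-induced.

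All pools came from embryos of the AB line frozen at 72 hours post fertilization (hpf), 10 embryos to a pool. The 6 FFA pools had received fluorescent (BODIPY) lipid at 24 hpf by injection into the yolk, carried in canola oil at 1 mg/ml, the 6 glucose pools had been in 3% glucose from 24 hpf, and the 5 control pools carry no treatment in their titles. The labels do not say whether controls had a mock injection, so the lipid cannot be told apart from the injection. Nor can sugar be told apart from the strength of the medium, since no pool is labelled with a different solute. The hour of the day and the lighting at freezing are not given, so a difference in either between groups cannot be told apart from the treatments.

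Groups follow the titles of the libraries. The treatment tags of 11 of the 17 libraries name another group, and they nearly exchange glucose and FFA. The group sizes by title match those in the series' design text. If the tags hold and not the titles, results under glucose would mostly be those of the lipid, and those under FFA mostly those of glucose. Depth, as counts within genes, lay between 10.2 and 16.7 M (mega-counts) in each library. A further line of each file counts reads outside annotated genes, and its share of all counts ranged from 29.9 to 36.6%. This no-feature share is given beside the results below because the clock genes moved with it. Control replicates 1 and 2 and glucose replicate 4 had 3 of the 4 largest shares (36.6, 35.6 and 36.2%) and were left out together as an alternative, while FFA replicate 4 (35.8%) was kept. Levels are CPM (counts scaled to a common library total, with TMM factors) and are compared between pools, not between genes, since no transcript lengths were used. In whole embryos, fewer cells that express a gene and less RNA per cell cannot be told apart.

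The 3 genes taken here as light-induced differed among the groups. The mean of per2, a light-induced repressor, was 29.2 ± 8.82 CPM in FFA pools and 170.3 ± 5.66 CPM in glucose pools (SD, n = 6 each), against 69.1 ± 9.03 CPM in control pools (n = 5). The mean of cry5, a photolyase-related gene, was 3.95 ± 1.07 CPM in FFA pools and 22.6 ± 1.91 CPM in glucose pools, against 5.96 ± 0.358 CPM in control pools. The treatment tags place glucose replicate 1 with the controls and FFA replicate 1 with the other glucose pools. Their per2 levels were 171 and 18.8 CPM. By title, per2 ran from 164 to 180 CPM in glucose pools, 58.1 to 82.4 CPM in control pools and 18.8 to 41.8 CPM in FFA pools. By edgeR's quasi-likelihood test with Benjamini-Hochberg adjustment over all genes, per2, cry1aa and cry5 were each higher in glucose than in control (adjusted p at most 6.14e-05) and lower in FFA than in control (adjusted p at most 0.0246). None of the 10 members was called higher in glucose or lower in FFA against control in the same fit. Over all genes, 5.87% were called higher in glucose and 0.716% lower in FFA, so this count shows nothing particular to the list. The gene per3 had the direction of the light-induced genes (log2 0.30 in glucose and -0.23 in FFA against control, not called). With the no-feature share in the model it was called in that direction, as given below. That fit called 18.6% of all genes in glucose against control and 4.79% in FFA against control. No other fit called per3 against control. Without control replicates 1 and 2 and glucose replicate 4 its change in FFA against control was of opposite sign, small and not called. That fit kept FFA replicates 4 and 5, whose no-feature shares were also large (35.8 and 35.3%). Since per3 was higher in libraries of larger share, that fit cannot decide its direction. The name of the 10 members as loop genes that are not light-induced rests on knowledge of zebrafish, since the lighting of these pools is not given.

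**Figure D1:**
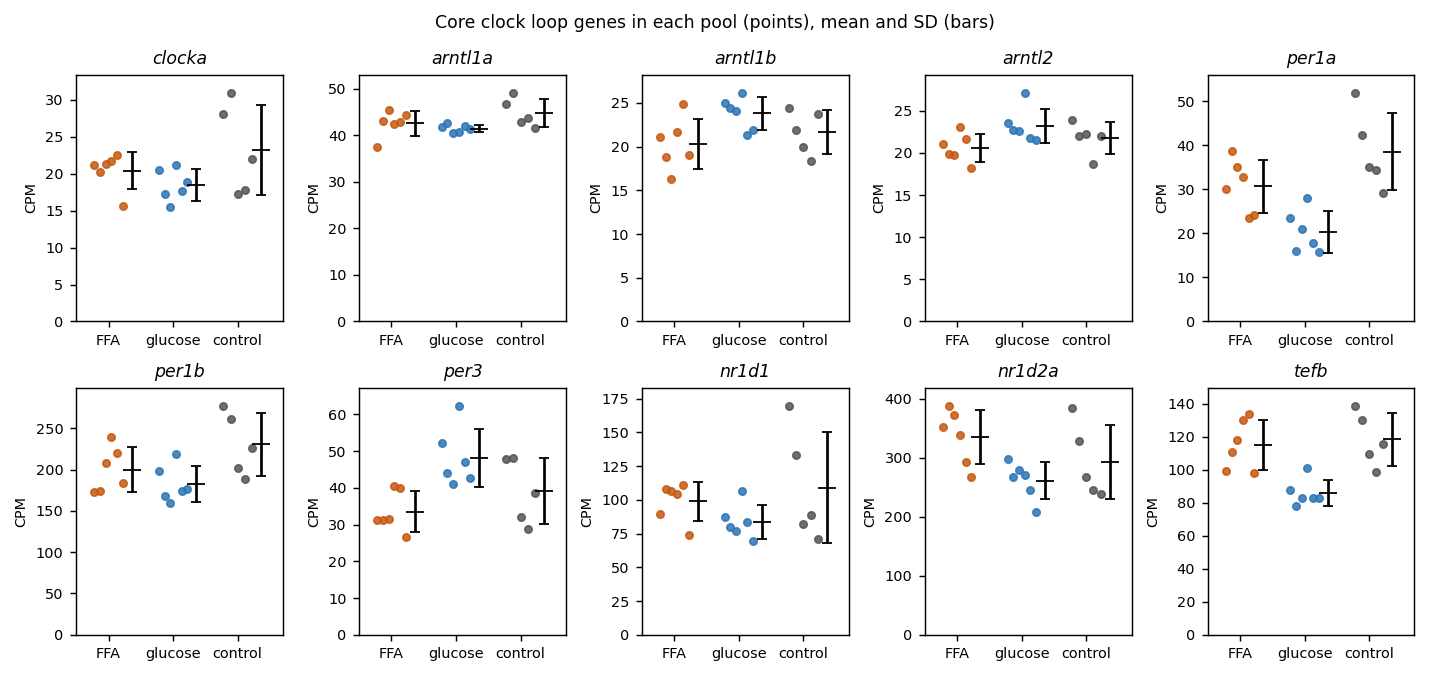
Level of each core clock loop gene in CPM (y axis, linear from 0) in the FFA, glucose and control pools. Each point is 1 pool, and the bars give the mean and SD of 6, 6 and 5 pools. In per1a, all 6 glucose pools lie below the 5 control pools, while the arntl1a points stay within 37.5 to 49.1 CPM in all groups.

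Glucose against control asked how the loop genes of pools kept in sugar compare with those of control pools. Of the 10 members, 2 were lower and 0 higher at an adjusted p under 0.05. Over all 13539 genes, 5.02% were called lower, 5.87% higher and 10.9% in either direction. With control replicates 1 and 2 and glucose replicate 4 left out, the members called were again per1a and tefb, beside 8.75% of all genes. The median log2 fold change of the 10 members was -0.25, beside -0.0031 over all genes tested. These counts show nothing particular to the list. Scaled by library size without TMM factors, 652 genes were called higher and 856 lower, against 795 and 679, and the members called were the same.

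None of the 4 activators, whose proteins drive the loop, passed the test between glucose and control pools. The gene clocka had a lowest, median and highest value of 15.5, 18.3 and 21.2 CPM in glucose pools. Its 5 control pools had 28.0, 30.9, 17.3, 17.8 and 21.9 CPM. The 2 highest control pools, replicates 1 and 2, are libraries of large no-feature share, and the other 3 control values lay within the glucose range or within 1 CPM of it. The log2 fold change of clocka was -0.33 ± 0.142 (SE, adjusted p = 0.16, edgeR), and the 95% interval ran from -0.63 to -0.027 before adjustment for the number of genes.

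The BMAL gene arntl1a was the steadiest member. It averaged 41.5 ± 0.840 CPM in glucose pools (n = 6) and 44.8 ± 3.07 CPM in control pools (n = 5), and its log2 fold change had an interval of -0.23 to 0.0042. The other BMAL genes had intervals of -0.073 to 0.35 (arntl1b) and -0.069 to 0.26 (arntl2). Changes of 1.5-fold in any of the 3 BMAL genes lie outside these intervals.

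The period gene per1a, which encodes a repressor of the CLOCK and BMAL pair, fell in glucose pools. Its lowest, median and highest values were 15.8, 19.4 and 27.9 CPM in glucose pools. The 5 control pools had 51.9, 42.3, 35.1, 34.5 and 29.1 CPM. Every glucose pool lay below every control pool, which held in this direction for 3.24% of all genes. The log2 fold change was -0.92 ± 0.175 (SE, adjusted p = 0.00279, edgeR), with an interval of -1.29 to -0.55, and all 11 fits that left out 1 library kept the call.

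The paralog per1b, also a period repressor, did not pass the test. It averaged 183 ± 21.8 CPM in glucose pools and 231 ± 37.9 CPM in control pools, a log2 fold change of -0.34 ± 0.113 (adjusted p = 0.0661, edgeR). It was called without control replicate 4 (adjusted p = 0.0301), without glucose replicate 4 (adjusted p = 0.0271), and by DESeq2 (adjusted p = 0.0399), each time lower in glucose. The third period gene, per3, ran the other way, at 48.1 ± 7.91 CPM in glucose pools and 39.1 ± 8.95 CPM in control pools, with a log2 fold change of 0.30 ± 0.149 that was not called (adjusted p = 0.222, edgeR).

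Neither REV-ERB gene was called. The gene nr1d1, whose protein represses BMAL genes, had 69.2, 81.7 and 106 CPM as its lowest, median and highest values in glucose pools. Its control pools had 169, 133, 81.8, 89.0 and 71.3 CPM. Control replicates 1 and 2 lay above every glucose pool, and the other 3 lay within the glucose range. The log2 fold change of nr1d1 was -0.38 with an interval of -0.77 to 0.013, and without control replicate 1 it was -0.17. The related nr1d2a had a log2 fold change of -0.16 (interval -0.43 to 0.11).

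The gene tefb, which encodes a D-box-binding activator of the PAR bZIP family, fell in glucose. Its lowest, median and highest values were 78.3, 82.7 and 101 CPM in glucose pools. The control pools had 138, 130.1, 109.7, 98.5 and 116 CPM. The groups overlapped only through glucose replicate 4 (101 CPM) and control replicate 4 (98.5 CPM). The log2 fold change was -0.46 ± 0.0991 (SE, adjusted p = 0.00644, edgeR), with an interval of -0.67 to -0.25, and it was called in all 11 fits that left out 1 library.

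**Figure D2:**
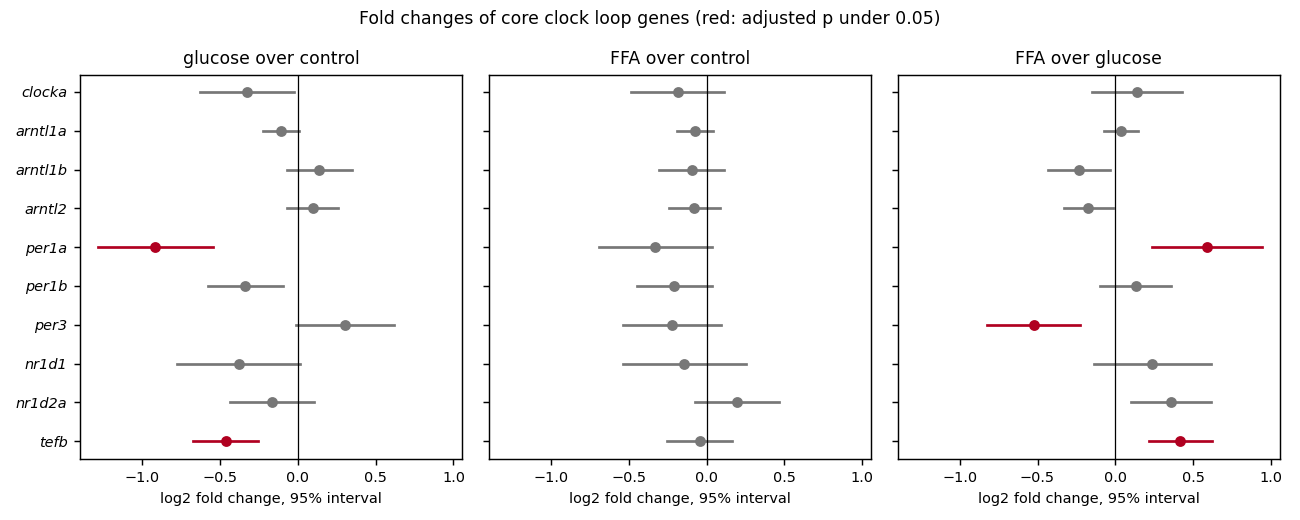
Log2 fold change (x axis) of the 10 genes (y axis) for glucose over control, FFA over control and FFA over glucose, with 95% intervals before adjustment for the number of genes. Red marks an adjusted p under 0.05: per1a (-0.92) and tefb (-0.46) on the left, no gene in the middle, and per1a (0.59), per3 (-0.53) and tefb (0.42) on the right.

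FFA against control asked the same of pools injected with the lipid. Of the 10 members 0 were called by edgeR, 0 had an unadjusted p under 0.05 and DESeq2 called 0, beside 1.82% of all genes called by edgeR and 10.2% at the unadjusted p. The median log2 fold change of the members was -0.12, beside -0.0088 over all genes. The FFA and control comparison shares its 5 control pools with the glucose comparison.

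The intervals show which sizes of change these pools leave possible. For arntl1a the interval was -0.19 to 0.042 and for tefb -0.25 to 0.16. It was wider for per1a, with -0.69 to 0.037, and for nr1d1, with -0.54 to 0.25. The lowest, median and highest per1a values were 23.5, 31.4 and 38.6 CPM in FFA pools, which overlap the control values of 29.1 to 51.9 CPM. The gene nr1d2a averaged 335 ± 46.3 CPM in FFA pools and 293 ± 62.2 CPM in control pools, a difference within the spread of both groups.

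FFA against glucose set the lipid pools beside the sugar pools, with no control pool in the contrast. Its glucose pools are those of the glucose and control comparison, so calls in both are not independent. Of the members, 2 were higher (per1a and tefb) and 1 lower (per3). Over all genes 7.98% were called higher and 9.00% lower, 17.0% in all. Without control replicates 1 and 2 and glucose replicate 4 there were 5 calls, with nr1d1 (log2 0.32, adjusted p = 0.025) and nr1d2a (0.38, adjusted p = 0.0139) added on the higher side. The share of all genes called was then 27.5%, so the background rose as well. In FFA against control those libraries' removal gave 0 member calls, beside 4.34% of all genes. FFA replicates 4 and 5, with no-feature shares of 35.8 and 35.3%, stayed in these fits. In FFA against glucose without glucose replicate 4 alone, neither nr1d1 nor nr1d2a was called. With the no-feature share in the model, nr1d1 was not called in that comparison.

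The per3 values parted the groups fully. Its lowest, median and highest values were 26.5, 31.4 and 40.6 CPM in FFA pools, against 41.1, 45.5 and 62.2 CPM in glucose pools. All 6 FFA pools lay below all 6 glucose pools, which held in this direction for 4.17% of all genes, although the nearest pair differed by less than 1 CPM. The log2 fold change was -0.53 ± 0.143 (SE, adjusted p = 0.0178, edgeR), and the call stood in all 12 fits without 1 library. In the order of mean levels for per3, glucose came first, control next and FFA last, and only the outer groups differed by the test.

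The gene tefb averaged 115 ± 15.0 CPM in FFA pools and 85.9 ± 8.09 CPM in glucose pools, a log2 fold change of 0.42 ± 0.0949 (adjusted p = 0.00606, edgeR) that was called in all 12 fits without 1 library. The gene per1a averaged 30.7 ± 5.996 CPM in FFA pools and 20.3 ± 4.80 CPM in glucose pools, a log2 fold change of 0.59 ± 0.169 (adjusted p = 0.0236, edgeR). That call ended in 6 of 12 fits, those without FFA replicates 2, 3 or 4 or glucose replicates 2, 5 or 6 (adjusted p 0.0501 to 0.0587). For both genes the mean was highest in control, lower in FFA and lowest in glucose, and the FFA and control means did not differ by the test.

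Among the others, nr1d2a had 268, 345 and 387 CPM as its lowest, median and highest values in FFA pools, against 208, 269 and 298 CPM in glucose pools, a log2 fold change of 0.36 ± 0.123 that missed the threshold (adjusted p = 0.0532, edgeR). It passed without glucose replicate 1 (adjusted p = 0.0479), without FFA replicate 6 (adjusted p = 0.0276), with DESeq2 (adjusted p = 0.035), and in a fit of these 2 groups alone (adjusted p = 0.0257). It also passed with the replicate number as a block (adjusted p = 0.013). The BMAL gene arntl1b had a log2 fold change of -0.23 ± 0.0946 (adjusted p = 0.103, edgeR) and was called without FFA replicate 5 (adjusted p = 0.0363). The gene arntl2 had one of -0.17 ± 0.0742 (adjusted p = 0.119, edgeR).

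Most loop genes were higher in libraries with a larger no-feature share. In a fit of all genes with the 3 groups and that share, 8 of 10 members had a slope called above 0 and none below. Over all genes, 26.8% had a slope called above 0 and 57.8% a slope called in either direction. The steepest was per3, which was higher by 0.11 ± 0.00924 log2 units for each percentage point of the share (SE, adjusted p = 1.18e-07, edgeR). The slopes of per1b and tefb were 0.083 ± 0.00763 (adjusted p = 2.17e-07) and 0.071 ± 0.00767 (adjusted p = 8.26e-07). The exceptions were arntl1a, at 0.0089 ± 0.00984 (adjusted p = 0.457), and nr1d2a, at 0.047 ± 0.0214 (adjusted p = 0.0698).

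**Figure D3:**
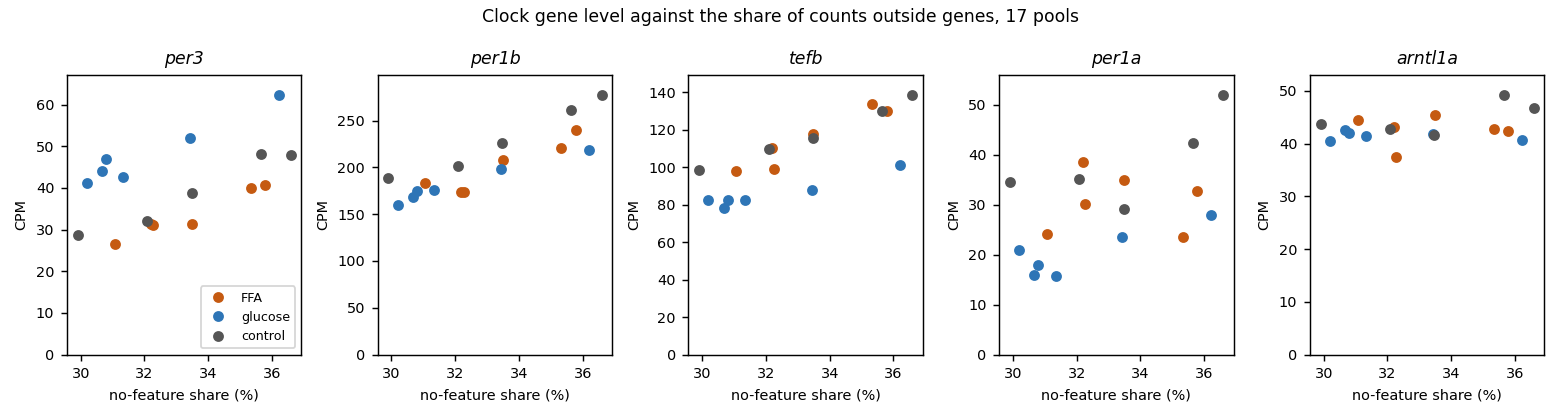
Level in CPM (y axis, from 0) against the share of counts outside annotated genes in % (x axis) for per3, per1b, tefb, per1a and arntl1a, with 1 point per pool coloured by group. The tefb points of FFA and control pools run together from 98.2 to 138 CPM while the glucose points run below them from 78.3 to 101 CPM, and in per3 the glucose points run above those of both groups at like shares.

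With this share held in the model, the calls of per1a and tefb stood and others were added. In glucose against control, per3 was then higher (log2 0.47, adjusted p = 4.55e-06, edgeR), arntl2 higher (0.16, adjusted p = 0.0318) and per1b lower (-0.21, adjusted p = 0.00178). In FFA against control, per1b (-0.19, adjusted p = 0.00893) and per3 (-0.19, adjusted p = 0.0302) were lower. In FFA against glucose, arntl1b (-0.29, adjusted p = 0.00801) and arntl2 (-0.23, adjusted p = 0.00177) were lower and nr1d2a higher (0.30, adjusted p = 0.0439). With the share in the model 18.6% of all genes were called in glucose against control, 4.79% in FFA against control and 29.4% in FFA against glucose, so the background rose as well.

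Markers of eye, pineal and nerve cells, in which clock genes are active, were summed for each library. The summed level of 23 photoreceptor markers was 2355 to 6069 CPM in FFA pools and 1446 to 8012 CPM in glucose pools, against 1722 to 9234 CPM in control pools. That of 6 pineal markers was 31.0 to 59.2 CPM in FFA pools and 26.2 to 74.0 CPM in glucose pools, against 27.4 to 84.7 CPM in control pools, with 1 of the 6 at 0 in every library. That of 17 neuron markers was 2042 to 3155 CPM in FFA pools and 1595 to 3418 CPM in glucose pools, against 1223 to 3908 CPM in control pools. Of the neuron markers 1 was at 0 in every library. All 3 sums were highest in glucose replicate 4 and in control replicate 1 within their groups, the libraries with the largest no-feature share of each. Among FFA pools that library was replicate 4, which had the highest neuron sum, while the photoreceptor and pineal sums were highest in FFA replicate 5. The median log2 fold changes of the tested markers in glucose against control were -0.50 (photoreceptor), -0.47 (pineal) and -0.28 (neuron). Those of tefb, per1a and per3 were -0.46, -0.92 and 0.30, and the median of the 10 members was -0.25. In FFA against glucose the marker medians were 0.35, 0.31 and 0.20, and in FFA against control they were -0.055, -0.050 and -0.10. In FFA against glucose tefb was at 0.42, per1a at 0.59 and per3 at -0.53, with a member median of 0.14. No photoreceptor or neuron marker was called in a comparison, and of 4 tested pineal markers 1 was lower in glucose than in control (the opsin gene exorh, -0.57 ± 0.110, adjusted p = 0.00302, edgeR) and 1 higher in FFA than in glucose (the melatonin enzyme gene aanat2, 0.75 ± 0.214, adjusted p = 0.0236), both named after their values were seen. The level of aanat2 was low, with means of 2.97 CPM in FFA pools and 1.74 CPM in glucose pools, and the groups overlapped. Of the pineal markers not called, asmt2 went the other way, at 0.12 ± 0.130 in glucose against control and -0.19 ± 0.125 in FFA against glucose. The values of otx5 were -0.41 ± 0.673 and 0.38 ± 0.645 in the same comparisons. The part of eye, pineal and nerve cells in the clock gene results was not tested.

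Ratios of counts within a pool do not depend on how libraries were scaled. They are given as a description, since the pairs were chosen after the values were seen. Counts of per3 over counts of per1a ran from 0.811 to 1.70 in FFA pools and from 1.96 to 2.76 in glucose pools, against 0.832 to 1.33 in control pools. No FFA or control pool reached the lowest glucose pool. Counts of tefb over counts of its paralog tefa ran from 0.772 to 1.23 in FFA pools and from 0.324 to 0.466 in glucose pools, against 0.685 to 1.25 in control pools. Here too the glucose pools stood apart, all of them below the other 11. How many gene pairs at large part the groups in this way was not counted. A ratio may still move with the no-feature share. That of tefb over tefa was highest in control replicate 1 and glucose replicate 4, the libraries of largest share in their groups. Among FFA pools it was highest in replicate 5, with a share of 35.3%. Counts of per1a over per1b ran from 0.0894 to 0.131 in glucose pools and overlapped those of control (from 0.129) and FFA pools (from 0.106). The ratios of arntl1a over arntl1b and of nr1d2a over nr1d2b also overlapped between glucose pools and the other groups.

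**Figure D4:**
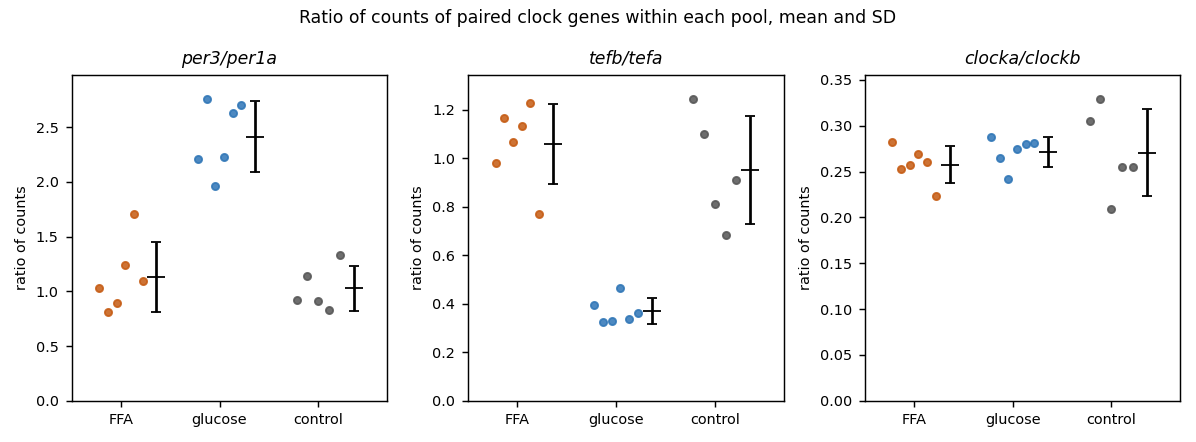
Ratio of counts within each pool (y axis, from 0) for per3 over per1a, tefb over tefa and clocka over clockb in the FFA, glucose and control pools, with 1 point per pool and bars for the mean and SD. The per3 over per1a ratios of glucose pools (1.96 to 2.76) lie above all others, their tefb over tefa ratios (0.324 to 0.466) lie below all others, and the clocka over clockb ratios overlap.

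The paralogs of tef thus went in opposite directions in glucose. The mean of tefa was 109 ± 11.2 CPM in FFA pools and 234 ± 13.3 CPM in glucose pools, against 127 ± 13.0 CPM in control pools. In glucose against control tefa rose by 0.88 ± 0.0773 on the log2 scale (adjusted p = 1.26e-06, edgeR), where tefb fell. The ratios of the 2 clock paralogs overlapped: clocka over clockb averaged 0.258 ± 0.0200 in FFA pools and 0.272 ± 0.0162 in glucose pools, against 0.271 ± 0.0472 in control pools. The paralog clockb, an activator like clocka, was called lower in glucose than in control (-0.32 ± 0.0769, adjusted p = 0.0131, edgeR). So was nr1d2b, the paralog of nr1d2a (-0.24 ± 0.0715, adjusted p = 0.0387).

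The rest of the clock was represented by 49 further symbols, of which 44 were in the files and 41 were tested. In glucose against control 7 of the 41 were higher and 11 lower, beside 5.87% and 5.02% of all genes, and their median log2 fold change was -0.17. The 3 with the smallest p were all higher: cry-dash, a DASH-type cryptochrome (1.19 ± 0.0778, adjusted p = 6.52e-08, edgeR), cry5 (1.92 ± 0.128, adjusted p = 6.97e-08) and tefa. In FFA against control 0 were higher and 3 lower, beside 1.10% and 0.716% of all genes. The 3 were the light-induced per2 (-1.25 ± 0.155, adjusted p = 0.000292), cry1aa (-0.34 ± 0.0666, adjusted p = 0.00981) and cry5 (-0.60 ± 0.134, adjusted p = 0.0246). In FFA against glucose 9 were higher and 8 lower, beside 7.98% and 9.00% of all genes, led by cry5 (-2.52 ± 0.125, adjusted p = 2.84e-09), cry-dash (-1.39 ± 0.0739, adjusted p = 4.60e-09) and per2 (-2.55 ± 0.154, adjusted p = 1.24e-08).

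The counts by role stand beside the same background of 5.87% higher and 5.02% lower in glucose against control, and 7.98% and 9.00% in FFA against glucose, and classes this small show nothing particular to a role. The REV-ERB and ROR genes had 0 higher and 3 lower of 8 in glucose against control, and 2 higher and 0 lower in FFA against glucose. The largest of these changes, named after their values were seen, was in nr1d4b, a further REV-ERB gene, at 3.25 ± 0.627 CPM in glucose pools and 10.2 ± 4.31 CPM in control pools (-1.64 ± 0.221, adjusted p = 0.000127, edgeR). The ROR gene rorcb, also named after its values were seen and whose protein family acts on the same sites as REV-ERB, fell as well (-0.77 ± 0.104, adjusted p = 0.000127). The PAR bZIP and NFIL3 genes had 1 higher and 5 lower of 9 in glucose against control, and 4 higher and 1 lower in FFA against glucose. In both comparisons the exception was tefa. Of 3 E-box repressor genes, 0 were called in glucose against control. Of the 6 cryptochrome genes other than cry1aa and cry5, 3 were higher in glucose against control (cry-dash, cry1ba and cry1bb) and 1 lower (cry4). All but cry-dash were named after their values were seen.

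Within groups, the loop genes mostly moved up and down together. Pearson's r of log2 CPM after removal of the group means, over 17 libraries, was above 0 for 15 of 15 pairs among the period, REV-ERB and tefb genes, with a median of 0.75. Between these and the activators it was above 0 for 24 of 24 pairs, with a median of 0.53. Among the activators it was above 0 for 4 of 6 pairs, with a range of -0.18 to 0.72. The closest pairs were per3 with tefb (0.93), per1b with tefb (0.92) and per1b with per3 (0.92). The genes per1a and nr1d2a formed a further close pair (0.84), while arntl1a reached at most 0.50, with nr1d1. These pairs share the libraries, their depth and the no-feature share, which 8 of the 10 genes follow. Within groups, the mean of the standardized activators had r = 0.94 with that share, and the mean of the standardized period, REV-ERB and tefb genes 0.90. How other gene pairs covary in these libraries was not counted, so the values show nothing particular to the loop.

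**Figure D5:**
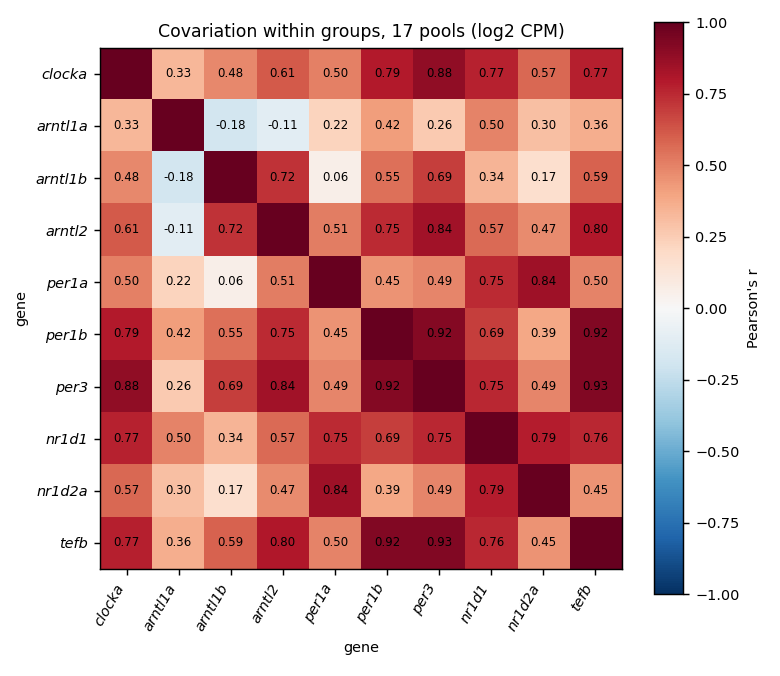
Pearson's r between the core clock loop genes (both axes), from log2 CPM with group means removed, over 17 pools, with the colour scale from -1 to 1. Values among per1b, per3 and tefb lie at 0.92 and 0.93, and the row of arntl1a is the palest, with -0.18 as its lowest value.

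The spread within groups differed among members. The SD of log2 CPM within groups was 0.33 for nr1d1, at percentile 82.9 of all genes tested, and 0.31 for per1a, at percentile 80.4. It was 0.079 for arntl1a, at percentile 6.60, beside a median of 0.18 over all genes. Over all 17 pools the highest per1a value was 3.29 times the lowest, and the highest arntl1a value was 1.31 times the lowest.

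The genes closest in pattern to the loop were taken by Pearson's r over the 17 libraries after removal of group means. For the mean of the standardized activators they were gbx2 (0.97), zranb1b (0.96), magi2a (0.96), sema4c (0.95) and tapt1b (0.95). For the mean of the standardized period, REV-ERB and tefb genes they were igsf21b (0.96), sltm (0.96), dbpb (0.95), slc6a9 (0.95) and mbd1a (0.95). Only dbpb, a PAR bZIP gene, is on the clock list, and it alone of these 10 was called in glucose against control (-0.92 ± 0.225, adjusted p = 0.0139, edgeR). All 10 also followed the no-feature share, with r from 0.84 to 0.97 over the same 17 libraries.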

How the data were processed

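Each of the 17 deposited files holds whole-number read counts, unnormalized, for 15316 named genes and 2 lines that name no gene. The line for no feature took 29.9 to 36.6% of all counts, the ambiguous line 0.213 to 0.252%, and both stayed out of library sizes and tests. Per the labels' protocols, libraries were stranded and made from poly(A) RNA. The submitters' processing notes name STAR, DESeq2 and the build danRer7. The counting tool, its strand setting and its treatment of shared reads are not stated in these sources, so paralogs are uncertain to that extent.

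Counts were tested with edgeR 4.0.16 in R 4.3.3: filterByExpr (minimum count 10), TMM scaling and the quasi-likelihood F-test in 1 fit of 3 group means over 17 libraries, with 14 residual degrees of freedom. Calls are at a Benjamini-Hochberg adjusted p under 0.05 over all 13539 genes. An SE is the log2 fold change divided by the square root of F. CPM use TMM-scaled totals, and log2 CPM for covariation a prior count of 2. Alternatives, including DESeq2 1.42.0, are given at the end. The procedure was tested on simulated data. Replicates of a group differed by more than sampling noise (chi-square per degree of freedom 4.26 to 67.4 in 40 pairs). The labels do not say that pools came from separate clutches, so p-values reflect how much these pools vary, which may be technical. The members, lists and alternatives were chosen with earlier results of these data known. Named were all members, the 3 called clock genes of smallest p in each comparison, and the 5 genes closest in pattern to each arm. Other genes, where not paralogs or light-induced genes, were named after their values were seen. No sequences or gene coordinates are given, since no genome of the files' build was used here.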

Additional observations from a re-analysis of the deposited data

Results flagged for a closer look

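In 30 sets of values (10 genes in 3 groups), 3 held a library far from the others of its group by Dixon's criterion, which flags about 1 group in 20 by chance. The clocka level of FFA replicate 6 was 15.6 CPM, with the other 5 FFA pools at 20.3 to 22.5 CPM. The arntl1a level of FFA replicate 1 was 37.5 CPM, with the others at 42.5 to 45.4 CPM. The arntl2 level of glucose replicate 4 was 27.1 CPM, with the others at 21.6 to 23.6 CPM, and that library has the largest no-feature share of its group (36.2%).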

How the results depend on the processing

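The calls of per1a and tefb in glucose against control and those of per3 and tefb in FFA against glucose stood with DESeq2, with no count filter, with library size alone, with RLE scaling, in fits of 2 groups, the replicate number as a block, the no-feature share as a covariate, and every library of their 2 groups left out in turn. Of 610 values of single members under the alternatives, 558 kept direction and call, 19 gained a call, 7 lost one and 26 changed sign. Of the 26 a further 3 lost their call, all by the treatment tag (tefb in glucose against control, per1a and per3 in FFA against glucose), so 10 calls were lost in all. Members called in glucose against control numbered 2, with 0 by the treatment tag, 5 with the no-feature share and 2 to 3 without 1 library. In FFA against control they numbered 0, with 2 with the no-feature share and 0 without any library. In FFA against glucose they numbered 3, with 1 by the tag, 6 with the no-feature share, 5 without the 3 libraries of large no-feature share, and 2 to 4 without 1 library. All genes called in glucose against control numbered 1474, with 910 in the fit with the replicate block, 106 by the tag, 2522 with the no-feature share and 1070 to 2019 without 1 library. In FFA against control they numbered 246, with 379 by DESeq2, 162 in a fit of 2 groups, 118 with the replicate block, 1 by the tag, 649 with the no-feature share, 589 without the 3 libraries and 157 (without control replicate 6) to 254 without 1 library. In FFA against glucose they numbered 2299, with 511 by the tag, 3978 with the no-feature share, 3738 without the 3 libraries and 1654 to 2754 without 1 library.

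The replicate numbers did not pair the pools: deviations of same-numbered libraries correlated above 0.1 in 1 of 5, 2 of 5 and 1 of 6 pairs (range -0.76 to 0.52). The cause of the changes below was not tested, beyond the exchange of names that the tags make.

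By the tag, values of opposite sign in glucose against control were arntl1b -0.14, arntl2 -0.10, per3 -0.28, nr1d2a 0.18 and tefb 0.058, in FFA against control arntl1b 0.059, arntl2 0.048, per3 0.11 and nr1d2a -0.12, and in FFA against glucose clocka -0.12, arntl1a -0.10, arntl1b 0.20, arntl2 0.15, per1a -0.52, per1b -0.20, per3 0.40, nr1d1 -0.26, nr1d2a -0.30 and tefb -0.43 (the last alone called, adjusted p = 0.0465). Without the 3 libraries, nr1d2a in glucose against control was 0.046, and in FFA against control clocka was 0.10, per3 0.014, nr1d1 0.29 and tefb 0.090, none called. Without control replicate 1, nr1d1 in FFA against control was 0.073 and tefb 0.017, where the 11 fits without 1 library ran from -0.26 to 0.073 and from -0.10 to 0.017. Counts of each member were 154 or more in every library. The part of counting error in the spread of single members was not tested.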
